A study of Drosophila melanogaster with 6 samples.

Results

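Drosophila gene models without a name of their own carry a CG number, and 162 genes listed in the deposited table only by such a number, called unnamed genes here, were raised in embryos laid by zldZnF2 females. They were chosen by 3 conditions: the locus holds a single gene with a CG number and no other name, its FPKM in zldZnF2 is at least 1, and that FPKM is at least 3 times the one in w1118. FPKM, fragments per kilobase of transcript and per unit of sequencing depth, is a level per length of transcript and can be compared between genes. Of 5551 such genes on chromosome arms 2L, 2R, 3L and 3R, 2243 reached an FPKM of 1 in zldZnF2, and the 162 are 7.22% of these. Another 3 genes with a CG number, CG13711, CG14915 and CG16813, were left out, since they served as markers of early zygotic transcription.

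The study asked how the second zinc finger of ZLD affects gene expression when the genome of the embryo is switched on. Polyadenylated RNA was sequenced from 6 samples of hand-sorted embryos of stage 5, when the blastoderm forms cells. Of these, 3 came from w1118, the control strain with wild-type zld, and the other 3 from mothers homozygous for the zldZnF2 allele, in which 1 cysteine of the zinc finger is replaced by serine at the endogenous gene. Both strains were kept at 25 °C on molasses food. The mutation acts here through the mother, so the genotype refers to the mother and the genotype of the embryos themselves is not given in the labels.

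ZLD (Zelda) is a zinc-finger protein that the mother supplies to the egg. It binds DNA before the zygotic genome is active and is needed for the activation of many of the first zygotic genes. At the same time the RNA that the mother left in the egg is cleared, first by factors of the mother and later by factors that the zygote makes. A level in a stage 5 embryo therefore sums maternal and zygotic RNA, and a higher level cannot be assigned to either by these measurements.

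The deposited table holds 1 FPKM per genotype, computed from the 3 samples together. No spread between samples could be given, no test was run, and the depth of each sample is unknown. Since the levels and ratios chose the genes, all of them are given below as a description. In whole embryos, a change in the number of cells that express a gene and a change of RNA per cell cannot be told apart. No locus of the X (2535), of chromosome 4 (110) or of the Y (71) has a value above 0 in either genotype, so genes there were not analysed here. All 162 genes were marked in the table as having enough alignments to be compared.

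The share of raised genes was close to that of other genes. Over all loci of the 4 arms that reached an FPKM of 1 in zldZnF2, 405 of 5935 (6.82%) were at least 3 times higher than in w1118. Among the other single-gene loci, those listed under any other name or number, the share was 6.66% (223 of 3347). In the other direction, 163 of 2213 unnamed genes that reached 1 in w1118 (7.37%) were at least 3 times lower in zldZnF2, against 5.39% of the other single-gene loci and 6.18% of all loci. Raised and lowered unnamed genes were thus about equally many.

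The share depended on the level. Of unnamed genes with a zldZnF2 FPKM between 1 and 2, 55 of 212 (25.9%) were raised, and the same was true of 26.6% of the other single-gene loci. Between 10 and 50 the share was 2.02% for unnamed and 3.96% for other loci, and at 50 and over it was 0.533% (3 of 563) and 0.326% (4 of 1227). For the 2081 unnamed genes that were not raised the median was 20.5 in w1118 and 19.1 in zldZnF2. For the raised genes the medians were 0.640 and 3.00. The choice set no upper limit on either level, but it asked for a 3-fold difference, so the gap between these medians follows from it.

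**Figure D1:**
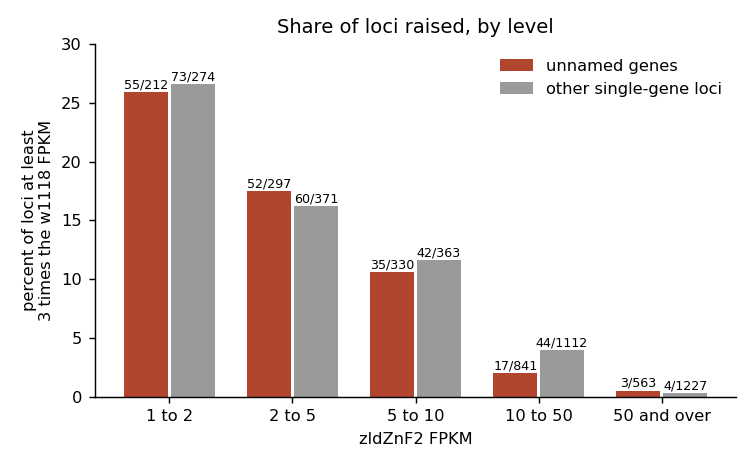
Percent of loci whose FPKM in zldZnF2 was at least 3 times that in w1118 (vertical axis, from 0), by FPKM in zldZnF2 (horizontal axis), for unnamed genes (red) and other single-gene loci (grey); the numbers above the bars are raised loci over all loci of the bin. The share falls from 25.9% and 26.6% in the lowest bin to 0.533% and 0.326% in the highest, and the bars of a bin lie close together except between 10 and 50, where it is 2.02% for unnamed and 3.96% for other loci.

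Among the 162 genes, 62 reached an FPKM of 1 in w1118 and 100 stayed under it, of which 4 were listed at 0. In zldZnF2, 55 genes lay between 1 and 2, 87 between 2 and 10, and 20 at 10 or over. The ratio of zldZnF2 to w1118 had a median of 4.07 over the 158 genes above 0 in w1118, and 73 of them lay between 3 and 4. On the scale of log2(FPKM + 1) the median difference was 1.28 and the range 0.63 to 3.09, and 43 genes were below 1 because their levels are low. The median of this difference over all loci that reached an FPKM of 1 in zldZnF2 was 0.03. Summed over the 162 genes they made up 0.0369% of the summed FPKM in w1118 and 0.162% in zldZnF2.

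**Figure D2:**
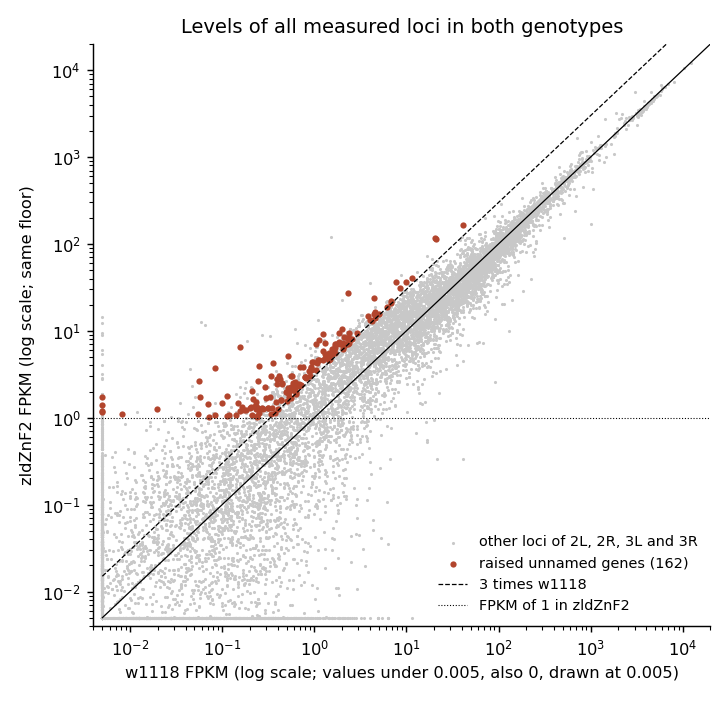
FPKM in w1118 (horizontal axis) and zldZnF2 (vertical axis), both logarithmic, for loci on 2L, 2R, 3L and 3R with a value above 0 in a genotype; each point is a locus, values under 0.005 are drawn at 0.005, and the 162 raised unnamed genes are red. They fill the corner above the dashed line (3 times w1118) and the dotted line (an FPKM of 1), most of them under an FPKM of 10 in zldZnF2, with 3 genes above 100.

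Few of the genes were abundant. Positions and distances given from here on are those of the listed loci. Of the 162 loci, 90 match the annotated gene exactly, and others can reach past it. CG8209 (3L, 7976406 to 7978650 in dm6) had the highest level, an FPKM of 165 in zldZnF2 against 41.4 in w1118. Next came Hsdl2 (listed as CG5590; 3R, 27677522 to 27679013), a hydroxysteroid dehydrogenase-like enzyme, with 117 against 20.4. Pdhb (listed as CG11876; 3R, 29113071 to 29116197), the beta subunit of the E1 enzyme of pyruvate dehydrogenase, which turns pyruvate into acetyl-CoA, had 113 against 20.9. These 3 genes held 31.5% of the summed zldZnF2 FPKM of the 162.

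The level dropped steeply after them. CG9344 had an FPKM of 40.1 in zldZnF2 against 11.4 in w1118, Pus1 36.2 against 9.93 and CG10283 36.1 against 7.79. CG16758 followed with 31.1 against 8.61, and CG6937 with 22.3 against 6.86. CG32982 had 23.6 against 4.50. CG9752 (2R, 21293768 to 21295588) had 27.2 against 2.31, a ratio of 11.7, and it was the only gene with a ratio over 10 among the 62 that reached an FPKM of 1 in w1118.

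The largest ratios belonged to genes near the lower limit. Of the 17 genes with a ratio over 10, 16 had an FPKM under 0.5 in w1118. CG9997, a gene with the synonym of a serine protease homologue, had a ratio of 134, but its FPKM was 1.10 in zldZnF2 and 0.0082 in w1118, and such a ratio moves with a few reads. CG16998 had a ratio of 64.5 (0.0195 and 1.26), CG31871 one of 46.7 (0.0561 and 2.62) and CG9222 one of 44.2 (0.0836 and 3.70). All exons of CG16998 overlap lqf on the other strand, which had 19.7 in zldZnF2 and 19.3 in w1118, so its reads cannot be assigned to it. Egfrap (listed as CG33993; 3L, 5933036 to 5950658), an adaptor of the epidermal growth factor receptor, stood apart in level, with an FPKM of 6.50 against 0.157, a ratio of 41.5.

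Lower ratios among the 10 largest were 29.9 for CG14253, 20.7 for CG13965 and 20.4 for CG32074, which reached FPKM values of 1.72, 1.12 and 1.43 in zldZnF2. CG17261 had a ratio of 15.8 (0.249 and 3.94) and CG31777 one of 15.6 (0.114 and 1.77). The 4 genes listed at 0 in w1118 have no ratio. Their FPKM in zldZnF2 was 1.71 for CG13679, 1.41 for CG31955, 1.20 for CG3397 and 1.18 for CG10348, the last of which carries the synonym PRDM16, a zinc-finger transcription regulator in vertebrates.

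The limits divide genes that hardly differ. Just inside the fold limit were CG31642, CG15014 and CG5665, with ratios of 3.00, 3.01 and 3.01. Just outside it were CG15099 and CG16772, both at 2.99 (2.9931 and 2.9929), and CG18528 at 2.987. Just above an FPKM of 1 in zldZnF2 were DIP-epsilon at 1.01, CG32845 at 1.02 and CG9444 at 1.04, and just below it CG31391 and CG9876, at 0.997 and 0.996, and CG31202 at 0.917.

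A CG number in the table is not always a gene without a name today. In the current RefSeq annotation 41 of the 162 have a symbol of their own, and others carry a synonym that gives a function. A role was given to 48 genes, 35 from the symbol and 13 from a synonym, and they were put into 9 groups after their values had been seen. A few further genes with a synonym that names a function were put in no group. The groups describe what the raised genes are, and every gene in them is raised by the way it was chosen.

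**Figure D3:**
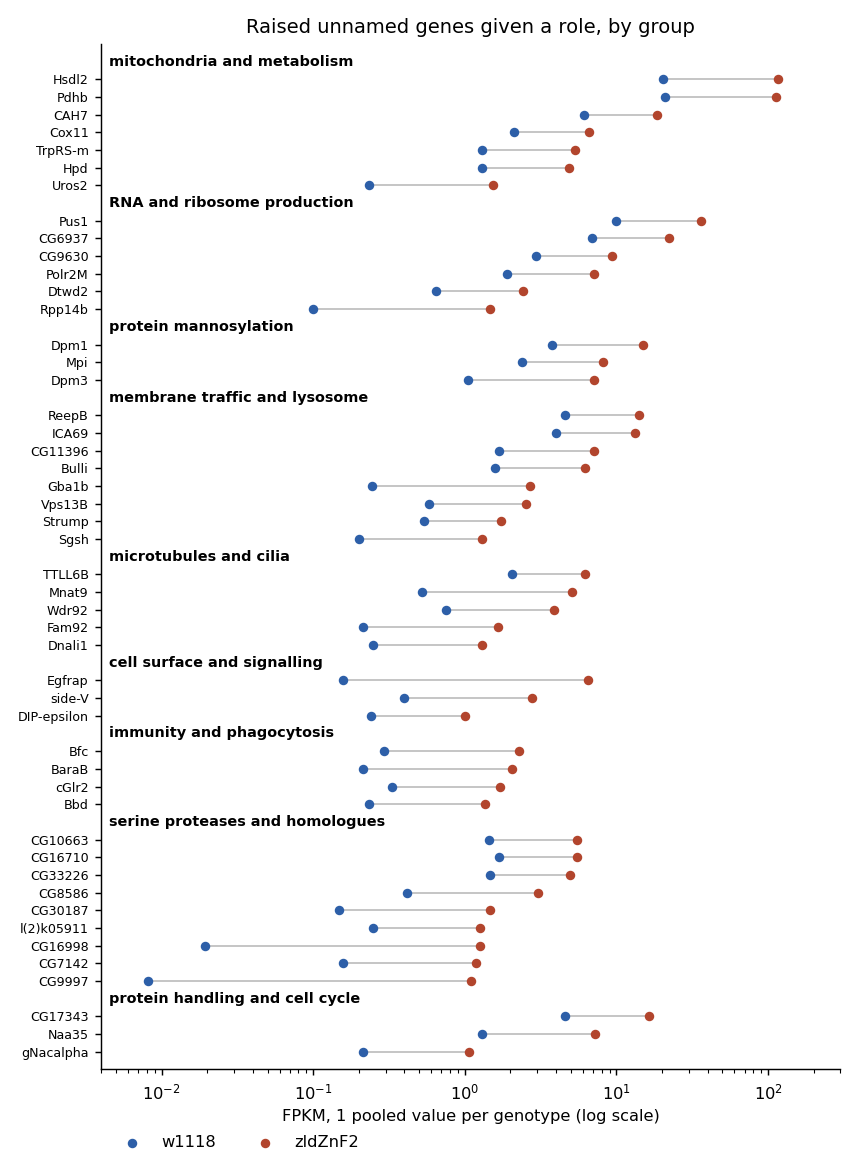
FPKM in w1118 (blue) and zldZnF2 (red) on a logarithmic axis for the 48 raised genes given a role, 1 line per gene, ordered by level within 9 groups; each point is the 1 pooled value of a genotype, so no error is drawn. Hsdl2 and Pdhb, in the group of mitochondria and metabolism, reach over 100 in zldZnF2, while the 4 genes of immunity and phagocytosis stay between 1.36 and 2.27 and CG9997 has the longest line, from 0.0082 to 1.10.

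The group of mitochondria and metabolism had 7 genes, with ratios from 3.04 to 6.52. Besides Hsdl2 and Pdhb, CAH7, a carbonic anhydrase, had an FPKM of 18.6 in zldZnF2 against 6.12 in w1118. Cox11, which helps to insert copper into cytochrome oxidase, had 6.61 against 2.13. TrpRS-m, the tryptophanyl-tRNA synthetase of mitochondria, had 5.35 against 1.29. Hpd, an enzyme of tyrosine breakdown, had 4.88 against 1.30, and Uros2, a uroporphyrinogen synthase of the heme pathway, 1.52 against 0.234.

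For some of these genes a partner or a relative could be read too. The acetyltransferase subunit of pyruvate dehydrogenase, muc, had an FPKM of 17.8 in zldZnF2 and 21.1 in w1118, and the kinase that turns the complex off, Pdk, had 99.7 and 126. Pdhb was therefore about as high as muc in w1118 and above it in zldZnF2, while the alpha subunit lies on the X chromosome and was not analysed here. Cox10, another assembly factor of cytochrome oxidase, had 82.9 and 111. Of 13 mitochondrial tRNA synthetase genes that reached an FPKM of 1 in a genotype, TrpRS-m and PheRS-m (12.2 in zldZnF2 against 3.57 in w1118) were raised and 11 stayed within 3-fold. Of the 3 carbonic anhydrases that reached it, CAH7 was raised, CAHbeta had 1.74 in zldZnF2 and 2.69 in w1118, and CAH2 was lowered, with 2.43 and 14.7. The synthetases thus had 15.4% raised, and the carbonic anhydrases 33.3% raised and 33.3% lowered. Of all 6265 loci that reached an FPKM of 1 in a genotype, 6.46% were raised and 5.78% lowered. Both families were chosen after values were seen and hold a gene raised by choice, so no excess is read from these shares.

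A group of 6 genes works on RNA. Pus1 makes pseudouridine in tRNA and had the highest level, 36.2 in zldZnF2 against 9.93 in w1118. CG6937, with the synonym NIFK, a nucleolar protein in human cells, had 22.3 against 6.86, and CG9630, with the synonym of the RNA helicase DDX55, had 9.37 against 2.94. Polr2M, which binds RNA polymerase II, had 7.06 against 1.88. Dtwd2, a tRNA-modifying enzyme, had 2.42 against 0.647.

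Rpp14b, a subunit of ribonuclease P, which trims the 5′ end of tRNA, was the lowest of this group at 1.46 against 0.1004. Its paralogue Rpp14a lies in a locus that the table shares with another gene, and that locus had 9.19 against 3.00, also past 3-fold. Of the other subunits, those read here stayed within 3-fold. Not all subunits were read: Rpp20 was not matched to a locus, and Rpp21 and Pop1 lie on the X chromosome. Rpp25 had 9.08 in zldZnF2 and 13.3 in w1118, Rpp30 25.2 and 19.0, and Pop5 75.7 and 94.8.

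Protein mannosylation was represented by 3 genes, 1 from the start of the route and a pair of subunits of an enzyme near its end. Mpi interconverts fructose and mannose phosphates at the start of the route to GDP-mannose, and had an FPKM of 8.16 in zldZnF2 against 2.38 in w1118. Dolichol phosphate mannose synthase carries mannose to the membrane lipid from which it is used in the endoplasmic reticulum. Its catalytic subunit, Dpm1 (listed as CG10166, a gene of 935 bases in the locus 2L, 19518824 to 19526368), had 15.0 against 3.78. Its small membrane subunit, Dpm3 (listed as CG33977; 3R, 13402559 to 13403051), had 7.09 against 1.05. Dpm2, another subunit, was not matched to a locus and could not be read.

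The steps between Mpi and the synthase did not pass the limit. Pmm2, a phosphomannomutase, had 3.74 in zldZnF2 and 5.58 in w1118. The GDP-mannose pyrophosphorylase subunits had 61.9 and 54.9 for Gmppa and 15.4 and 10.7 for Gmppb. Mpi, Dpm1 and Dpm3 were thus 3.43 to 6.77 times higher, while the 3 genes of the steps between were 0.669, 1.13 and 1.44 times the level of w1118.

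Membrane traffic and the lysosome had 8 genes. ReepB, which shapes the endoplasmic reticulum, had 14.1 in zldZnF2 against 4.60 in w1118. ICA69, a protein of secretory vesicles, had 13.2 against 3.98, and CG11396, with the synonym of the tethering factor TRAPPC12, 7.09 against 1.69. Vps13B, of a family of lipid-transfer proteins, had 2.52 against 0.585. Gba1b, the glucocerebrosidase that splits glucosylceramide in lysosomes, had 2.68 against 0.245, the largest ratio of the group at 10.9, and its paralogue Gba1a stayed at 0.198 and 0.115. Sgsh, a sulfatase of heparan sulfate breakdown, had 1.30 against 0.201.

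The other 2 belong to complexes of which further subunits could be read. Bulli, with Mon1 and Ccz1 a part of the exchange factor that activates Rab7 on late endosomes, had 6.25 against 1.57. Its partners Mon1 and Ccz1 had 60.1 and 16.0 in zldZnF2 and 85.4 and 10.5 in w1118, within 3-fold. Strump, of the WASH complex that builds actin on endosomes, had 1.73 against 0.537. Of the same complex, wash had 3.36 against 1.64, FAM21 2.42 against 1.55 and CCDC53 1.77 against 0.908, all higher but by 1.56 to 2.05 times, while SWIP lies on the X chromosome and was not analysed here.

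A group of 5 genes belongs to microtubules and cilia. TTLL6B, a tubulin glutamylase, had 6.23 in zldZnF2 against 2.06 in w1118, and Mnat9, an acetyltransferase that binds microtubules, had 5.11 against 0.520. Wdr92, needed to assemble dynein arms, had 3.87 against 0.754. Fam92, of the base of cilia, had 1.66 against 0.214, and Dnali1, an axonemal dynein chain, 1.29 against 0.247. Ciliated cells are known in the fly from sensory neurons and sperm, not from the blastoderm. Of the neuron and glia markers, nSyb had 0.350 in zldZnF2 and Syt1 0.0068, both lower than in w1118, while repo had 0.0522 against 0.0666 and brp 0.111 against 0.1003. The 5 markers summed to 49.9 against 59.3, almost all of it from the locus that Syx1A shares with 4EHP.

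At the cell surface, side-V, a receptor of the Sidestep family of immunoglobulin proteins, had 2.76 against 0.395. It was the only one of the 8 Sidestep genes to reach an FPKM of 1 in a genotype. DIP-epsilon, of the Dpr-interacting immunoglobulin receptors, had 1.01 against 0.241, and with Egfrap these are the 3 genes of the group. Of the 9 DIP genes with values, only DIP-lambda also reached an FPKM of 1 in a genotype, with 1.53 in zldZnF2 and 1.25 in w1118.

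The 4 genes of immunity and phagocytosis were all low. Bfc, booster of croquemort, which acts in the clearance of dead cells by blood cells, had 2.27 in zldZnF2 against 0.293 in w1118. BaraB, placed in this group only by its family, the baramicin immune peptides, had 2.03 against 0.212. Of its relatives, BaraA1 and BaraA2 were listed at 0 in both genotypes and BaraC had 4.39 against 2.55. cGlr2, a sensor of the family of cGAS-like receptors, had 1.71 against 0.331, and cGlr1 stayed at 0.0877 and 0.0586. Bbd (bombardier), which acts with the Bomanin immune peptides, had 1.36 against 0.233. The blood cell markers Hml and NimC1 were at 0.166 and 0 in zldZnF2, and the locus of the third, srp, had 25.0 against 23.1. Their part in these levels was not tested.

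Serine proteases and their homologues without catalysis were the largest of the 9 groups, with 9 of the 162 genes. They are a large gene family of the fly, numbered in the annotation by synonyms. The highest were CG10663 with 5.52 in zldZnF2 against 1.44 in w1118, CG16710 with 5.51 against 1.68 and CG33226 with 4.94 against 1.46. CG8586 had 3.04 against 0.413 and CG30187 1.47 against 0.147. The remaining 4, l(2)k05911, CG16998, CG7142 and CG9997, lay between 1.10 and 1.27 in zldZnF2.

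The family held raised and lowered genes. Of 238 genes with values that carry such a synonym, 189 were under an FPKM of 1 in both genotypes. Of the 49 others, 9 are among the raised unnamed genes, 1 more, CG30082 in a locus shared with a non-coding gene, was raised, 31 stayed within 3-fold and 8 were at least 3 times lower in zldZnF2. These are 20.4% raised and 16.3% lowered, against 6.46% and 5.78% of all 6265 loci that reached an FPKM of 1 in a genotype. The family was taken by synonym alone, so some of its genes may be of another kind. It counts genes, and a locus shared by several of them counts for each. The family was not compared with loci of equal level. The digestive proteases Jon65Aiv, Jon99Fii, alphaTry and betaTry were among those 8.

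The last group joins 3 genes of protein handling and the cell cycle. CG17343, with the synonym Cdc26, a subunit of the anaphase-promoting complex in other species, had 16.5 in zldZnF2 against 4.61 in w1118. All exons of CG17343 overlap CG10702 on the other strand, so its reads cannot be assigned to it. Naa35, a subunit of the N-terminal acetyltransferase NatC, had 7.26 against 1.30. gNacalpha, the germline form of a chaperone subunit that binds nascent proteins, had 1.06 against 0.213, while the general form Nacalpha had 88.0 against 45.7, within 3-fold.

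Of the other genes with a current symbol, Camp had 7.34 against 2.03, aus 2.16 against 0.557 and Vajk1, of a family of cuticle proteins, 1.99 against 0.627. The relatives of Vajk1 were under an FPKM of 1 in both genotypes. Vajk2 had 0 against 0.379, Vajk3 0 against 0.919 and Vajk4 0.124 against 0.0686. CG32368 and CG43885 are now annotated as non-coding RNAs, a long non-coding RNA with 3.86 against 0.699 and an antisense RNA with 1.30 against 0.349. All others of the 162 are annotated as protein-coding.

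The genes given by range are 73. At a zldZnF2 FPKM of 5 and over, from 5.35 to 15.6, were 20 genes with ratios of 3.02 to 7.41: CG10011, CG12375, CG12947, CG13532, CG14543, CG15387, CG31125, CG31251, CG33062, CG34031, CG4133, CG42404, CG43965, CG4676, CG5382, CG5721, CG5793, CG7191, CG8613 and CG9588. The largest ratios among them were 7.41 for CG14543 and 7.06 for CG7191. From 2.19 to 4.68 were 29 genes with ratios of 3.17 to 11.8: CG10445, CG11902, CG13029, CG13088, CG13920, CG14367, CG15236, CG15653, CG1598, CG17470, CG17681, CG17712, CG30380, CG31041, CG31141, CG33158, CG34293, CG3652, CG42342, CG4957, CG5282, CG5776, CG6845, CG6928, CG7294, CG7702, CG8407, CG8468 and CG9961. From 1.05 to 1.99 were 24 genes with ratios of 3.02 to 12.7: CG10694, CG11598, CG11983, CG12071, CG13124, CG13148, CG13390, CG13409, CG14154, CG14285, CG14346, CG14589, CG17224, CG31038, CG31347, CG31988, CG32263, CG42717, CG42741, CG44040, CG5455, CG6071, CG6329 and CG8854. Among these, CG7294 had the ratio of 11.8 and CG10694 that of 12.7.

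The position and structure of the genes was not part of their choice. Of the 162, 41 lie on 2L, 29 on 2R, 34 on 3L and 58 on 3R. The share on 3R was 35.8%, against 30.2% of the 2081 unnamed genes that reached an FPKM of 1 in zldZnF2 and were not raised, and that on 2R was 17.9% against 23.5%. The median difference on the scale of log2(FPKM + 1) was 1.14 on 2L, 1.32 on 2R, 1.32 on 3L and 1.28 on 3R.

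The raised genes were somewhat shorter. Their median length was 1588.5 bases against 2053 for the genes not raised, and the median coding length 1077 against 1179. A single exon was annotated for 26 of them (16.0%) against 11.3%. The longest was CG33158 with 76964 bases, and the shortest CG43965 with 255, where an FPKM rests on few positions. Length was not matched for level, and its part in the result was not tested.

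Other genes overlap many of them. The exons of 62 of the 162 (38.3%) overlap those of another annotated gene, on the opposite strand for 61, against 46.2% of the genes not raised. The kit that made the libraries does not mark the strand, so reads from the overlapping part cannot be assigned to either gene. In 4 cases the overlapping gene was raised too: Pus1 with Srp72 (8.89 in zldZnF2 against 2.203 in w1118), Naa35 with Zfrp8 (15.4 against 3.28), CG5721 with nopo (5.03 against 1.02) and CG12947 with CR31514 (2.54 against 0.679). Only the gene with the largest overlap was read for each of the 62, and for 8 it had no value. Over all loci that reached an FPKM of 1 in zldZnF2, 6.82% were raised, while the overlapping genes were taken at any level.

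For 7 genes at least 50% of the exon length overlaps: CG17343, CG16998, CG43965, CG43885, CG11396, CG12947 and CG14253. All of the exons of CG17343 overlap CG10702, which had 29.2 in zldZnF2 and 40.8 in w1118, and those of CG16998 overlap lqf, which had 19.7 and 19.3. The 62 genes with an overlap had a median log2 difference of 1.36, and the 100 without one 1.22.

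Neighbouring genes were compared as well, since their values were not part of the choice. Where a neighbour overlaps the raised gene the reads can be shared, so its value is not independent of the choice. Neighbours were not matched for level. On each side the nearest locus that is not one of the 162 was taken, passing over any of the 162 that lay between, and it was kept where its mean FPKM over both genotypes was at least 1. The median of log2(FPKM + 1) in zldZnF2 minus w1118 was 0.02 over 195 neighbours of raised genes and 0.00 over 2858 neighbours of the unnamed genes not raised. Of the 195, 15 (7.69%) were at least 3 times higher in zldZnF2 and 1 (0.513%) was at least 3 times lower. Of the 2858, 72 (2.52%) were higher and 96 (3.36%) lower. Over all loci of the 4 arms with such a mean FPKM, the 162 included where they reach it, the shares were 5.08% and 4.45%. No test was run, since a neighbour can count for 2 genes and 1 value per genotype gives no error.

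**Figure D4:**
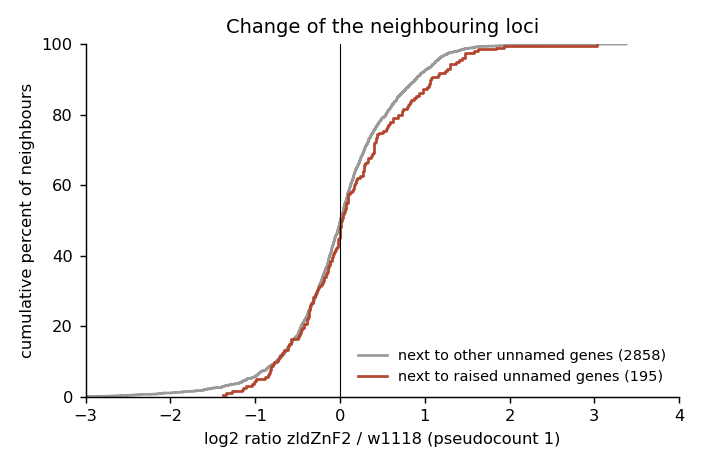
Cumulative percent (vertical axis) of the difference in log2(FPKM + 1) between zldZnF2 and w1118 (horizontal axis) for loci next to raised unnamed genes (red, 195) and next to the unnamed genes not raised (grey, 2858). Both curves cross 50% near 0, at 0.02 and 0.00, and the red curve lies to the right of the grey one above 0.5, where 7.69% and 2.52% of the loci are at least 3 times higher.

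The raised neighbours could not be single genes listed only by a CG number, since such genes would be among the 162. The highest was mfas, 320 bases from CG3397, with an FPKM of 26.5 in zldZnF2 against 2.37 in w1118, while CG3397 itself had 1.20 and was listed at 0 in w1118. pkaap, next to CG17329 and near CG13258, had 11.9 against 3.64. phr6-4, 106 bases from CG17470, had 6.45 against 1.08, and CG17470 4.40 against 0.952. Rh4, which codes for a light-sensing rhodopsin of the eye, overlaps the locus of CG13029 and had 5.20 against 1.39, and CG13029 2.43 against 0.446. cutlet, between CG31777 and CG31955, had 2.68 against 0.492. Of the 15 cases, 5 involved neighbours whose locus overlaps the raised gene. Where the nearest locus that does not overlap was taken instead, 12 of 184 (6.52%) were raised, against 2.89% for the genes not raised.

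Some raised genes lie next to each other. Loci within 10 kb of each other gave 11 pairs of 22 genes, 7 of them on the same strand, and 6 pairs had no other locus between them. The genes themselves can lie further apart than their loci. CG5281 (15.6 in zldZnF2 against 5.10 in w1118) and CG17230 (2.80 against 0.420) are 23 bases apart on the same strand of 3R. CG17329 (2.98 against 0.809) and CG13258 (2.47 against 0.675) are 61 bases apart on 2L and run towards each other, and pkaap lies on the other side of CG17329, so 3 loci in a row were raised. CG42866 (1.24 against 0.173) and CG13965 (1.12 against 0.0540) are 72 bases apart on 2L.

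The other 3 adjoining pairs point away from each other. CG31467 (3.53 against 1.06) and CG14684 (3.02 against 0.565) are 110 bases apart on 3R. Dpm1 and CG10137 (2.10 against 0.590) are 317 bases apart on 2L. The loci of CG32074 (1.43 against 0.0700) and CG14143 (1.07 against 0.140) are 323 bases apart on 3L. CG32074 itself has only 440 bases inside a longer locus. In the 5 further pairs, CG31777 with CG31955, CG14020 with Cox11, CG31642 with CG9222, CG1663 with CG1671 and CG17202 with CG5245, from 1 to 5 loci lie between the partners.

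The fate of maternal RNA was read from published lists of decay classes. Class II holds RNA cleared only by factors of the mother, class III RNA that is cleared in this way and also transcribed by the zygote, and class IV RNA cleared only after the zygotic genome is active. Of the 162 raised genes, 17 (10.5%) were in class II, 26 (16.0%) in class III and 5 (3.09%) in class IV, and 114 were on none of the lists. Of the 2081 unnamed genes not raised, 6.30% were in class II, 4.37% in class III and 19.0% in class IV. Read by class, 22.2% of 117 unnamed genes of class III were raised, 11.5% of 148 of class II and 1.25% of 400 of class IV, and 7.22% of the 1578 on no list. The classes also differed among the genes not raised. Their median difference in log2(FPKM + 1) was 0.46 in class II, 0.78 in class III, -0.39 in class IV and -0.004 on no list.

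**Figure D5:**
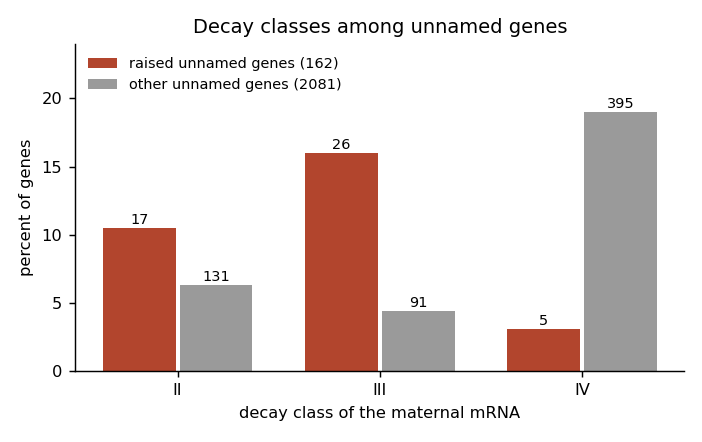
Percent of raised unnamed genes (red, 162) and of the unnamed genes not raised (grey, 2081) that are on the published list of each maternal decay class; the numbers above the bars count the genes, and genes on no list (70.4% in both sets) are not drawn. Class III holds 16.0% of the raised genes and 4.37% of the others, and class IV 3.09% and 19.0%.

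The classes differ in level as well. The raised genes of class III had medians of 2.18 and 8.15 in w1118 and zldZnF2, above the 0.472 and 2.26 of those on no list. Among the genes not raised the order was the other way, with medians of 7.82 and 15.1 in class III and 23.0 and 22.4 on no list. The raised share falls with the level, the classes were not compared at equal level, and the part of the level in these shares was not tested. Dpm1, Mpi, Naa35, Polr2M, Cox11, ReepB, CG9344 and CG16758 were among the 26, and Pdhb, Pus1, CAH7, CG9752 and CG6937 among the 17 of class II. With only the 62 genes that reached an FPKM of 1 in w1118, 22 (35.5%) were in class III, against 4.53% of the genes not raised that reached 1 in both genotypes. The most abundant raised gene, CG8209, was 1 of the 5 in class IV, with CG5245, CG5455, CG11983 and CG3397.

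Markers of the stage and of other cell types were read in the same table. The 16 blastoderm patterning genes ranged from an FPKM of 17.7 (dpp) to 207 (hb) in w1118 and from 15.6 (tld) to 223 (the locus of twi) in zldZnF2, with 0 raised and 1, tld, lowered. The 8 early zygotic genes summed to 6714 in w1118 and 6436 in zldZnF2. Of these, halo, term, the locus of Sry-alpha and spo were higher in zldZnF2, by 1.10 to 1.69 times, bnk and CG14915 were lower within 3-fold, and CG13711 and CG16813 were lowered past it. The segment polarity genes, which come on later, had a summed FPKM of 7.62 in w1118 and 28.6 in zldZnF2, and 2 of 6 were raised: gsb (13.2 against 1.10) and hh (3.29 against 0.575). Of the others, en, inv and wg were higher within 3-fold, and gsb-n was lower, at 0.0717 against 0.145. Of 8 muscle genes, 5 were at least 3 times lower in zldZnF2, Mhc, Mlc2, Mf, Tm2 and the locus of Act57B, and Mf was listed at 0 there. Tm1, which held most of the summed level of this list, had 504 against 509. Prm had 1.91 against 0.896, and sls was under 1 in both genotypes. Over all loci that reached an FPKM of 1, 6.82% were raised and 6.18% lowered past 3-fold. Eggshell and follicle cell genes summed to 1.24 in w1118 and 1.67 in zldZnF2 over 10 genes, of which 9 were under an FPKM of 1 in zldZnF2. The age of the embryos within stage 5 and a share of other tissue in a sample move with such markers, and their part in the levels of the raised genes was not tested.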

How the data were processed

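Reads of 100 bp from single-end libraries of 6 samples were trimmed in Galaxy by the authors, mapped to dm6 with RNA-STAR (Galaxy 2.5.2b-0), assembled with Cufflinks (2.2.1) and compared with Cuffdiff. The processing notes also name TopHat. The authors deposited 1 FPKM per locus and genotype, pooled over 3 samples. Options for normalization are not given in the sources used here. The authors' fold changes, test statistics, p-values, q-values and calls were not used. With 1 pooled value per genotype no test, SD or interval could be computed and the depth is unknown.

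Members and gene lists were chosen with earlier results of these data known. The genes named were the 10 highest in zldZnF2, the 10 largest ratios, those at 0 in w1118, those nearest each limit, those within 10 kb of another, and those with a current symbol. Roles, complex partners, families and genes named beside them were chosen after values were seen. Log2 values used a pseudocount of 1. Start positions in the table count from 0 and were raised by 1. Structures came from Ensembl release 115, symbols from RefSeq (Release 6). Decay classes were read from lists in the study's supplement, by CG number. Python 3.11.15, pandas 2.3.3, NumPy 2.4.6 and Matplotlib 3.10.9 were used, and the rule was tested on simulated data. Alternatives changed the fold limit, the FPKM limits, the pseudocount and the sets of loci.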

Additional observations from a re-analysis of the deposited data

How the results depend on the processing

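The number of raised unnamed genes, 162, moved with the limits. It was 372 at a fold limit of 2 and 89 at 4, 432 with a zldZnF2 FPKM of at least 0.1 and 55 with at least 5, 62 where both genotypes had to reach an FPKM of 1, and 29 with a pseudocount of 1 in the fold limit. A pseudocount of 0.1 gave 150, centring on the median ratio 166, the inclusion of loci of several genes 181, and the 3 excluded genes added none. Without genes whose exons overlap another gene, an alternative chosen after seeing the data, 100 were left. The median log2 difference of 1.28 became 1.92 with a pseudocount of 0.1 and 2.02 with none. The share of all loci past the limits, 6.82%, was 13.0% with an FPKM of at least 0.1, 3.24% with at least 5, 2.79% where both genotypes had to reach 1, 15.9% at a fold limit of 2 and 4.09% at 4. The share of raised neighbours, 7.69%, was 3.14% among neighbours with an FPKM of at least 5, against 1.02% next to the genes not raised. Class III held 35.5% of the raised genes, against 16.0%, where both genotypes had to reach an FPKM of 1.

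Low levels limit these values, since 100 of the 162 genes had an FPKM under 1 in w1118 and the reads behind them are unknown. No paired analysis was possible because the table holds 1 pooled value per genotype, and for the same reason no sample could be left out. The planned searches for Zelda motifs in promoters and the comparison of proteins were not run.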

Other observations

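Besides the single-gene loci, 20 loci that hold several genes passed the same limits, and 19 of them hold a gene with a CG number. The reads of such a locus cannot be assigned to one of its genes. The highest were the locus of CG18586 and CG5568 on 3L, with an FPKM of 59.2 in zldZnF2 against 19.2 in w1118, and that of CG6044 and ventrally-expressed-protein-D on 2R, with 38.5 against 12.2. The locus of CG3764 and mir-2500 had 18.8 against 4.55. The largest ratios were 27.1 for the locus of CG30486 and antr (1.32 against 0.0487), 14.3 for that of CG17217, CG31760 and ZnT33D (2.24 against 0.156) and 14.0 for that of CG7164 and Uro, the urate oxidase gene (2.55 against 0.182). In 7 of the 20 loci every gene has a CG number.

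The 3 genes left out as markers, the members of the early zygotic list with a CG number, were lower in zldZnF2, while 4 of the other 5 genes of that list were higher. CG13711 had an FPKM of 20.6 against 116 in w1118, CG16813 1.44 against 14.8 and CG14915 1074 against 1802.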
